A study of Mus musculus with 9 samples.

Results

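The cluster of miR-322, miR-503, miR-351, miR-542 and miR-450 is a run of microRNA (miRNA) hairpins on the mouse X chromosome, and its 10 mature arms chosen by name were mmu-miR-322-5p, mmu-miR-322-3p, mmu-miR-503-5p, mmu-miR-503-3p, mmu-miR-351-5p, mmu-miR-351-3p, mmu-miR-542-5p, mmu-miR-542-3p, mmu-miR-450a-5p and mmu-miR-450b-5p. All 10 were among the 1915 mature miRNAs listed in each count table. Small RNA libraries were made from the tibialis anterior (TA), a hindlimb muscle, of 4 mice given PBS only (control) and of 5 mice that carried subcutaneous tumors of Lewis Lung Carcinoma (LLC) cells, a mouse lung carcinoma line that causes wasting. The LLC mice received 750000 cells in each flank and the muscles were taken 22 days later. The sample labels give C57BL/6J mice of 10 weeks, whereas the series text gives C57BL/10 males of 8 weeks, and neither source names a genetic modification. The LLC animals were survivors of the tumor-bearing group. Each library is 1 mouse, called C1 to C4 in the control group and L1, L2, L3, L5 and L6 in the LLC group, while the library of L4 was not analysed here. Whole muscle was used, so that fewer cells of a type and less RNA per cell cannot be told apart.

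In the cell, one primary transcript can give several hairpins, each hairpin is processed into a duplex, and 1 arm of the duplex is usually kept by an Argonaute protein while the other is degraded. Bases 2 to 8 of the kept arm, the seed, pair with target mRNAs. miR-322 (called miR-424 in human) and miR-503 are known from differentiating myoblasts, where they favour exit from the cell cycle, and miR-351 is known from proliferating muscle progenitors during regeneration. The cluster was therefore examined for its level in wasting muscle and for whether its arms moved together from mouse to mouse.

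The mature sequences, from RefSeq on GRCm38.p6, are shown because the cluster carries a pair of seeds that are shared with abundant muscle miRNAs from other loci. All 10 members matched by name. Capitals mark the seed. The first set has the miR-15/16 type of seed: miR-322-5p shares its full seed with miR-15a-5p, miR-16-5p and miR-497a-5p, and miR-503-5p resembles them at the start of the seed.
mmu-miR-322-5p: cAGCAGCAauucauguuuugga
mmu-miR-503-5p: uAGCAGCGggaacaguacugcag
mmu-miR-15a-5p: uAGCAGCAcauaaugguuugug
mmu-miR-16-5p: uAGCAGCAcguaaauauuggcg
mmu-miR-497a-5p: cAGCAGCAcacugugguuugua

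The second set has the seed of the miR-125 family, which miR-351-5p shares.
mmu-miR-351-5p: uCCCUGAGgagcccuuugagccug
mmu-miR-125a-5p: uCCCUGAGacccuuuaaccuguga
mmu-miR-125b-5p: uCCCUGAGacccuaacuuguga

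The remaining arms that the results turn on have seeds that no other expressed miRNA carries.
mmu-miR-503-3p: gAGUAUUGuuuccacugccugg
mmu-miR-542-5p: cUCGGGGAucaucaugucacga
mmu-miR-542-3p: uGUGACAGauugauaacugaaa
mmu-miR-450a-5p: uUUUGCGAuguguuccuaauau
mmu-miR-450b-5p: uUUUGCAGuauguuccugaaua

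Outside the seed the members are distinct. Compared base by base from the first base, the nearest other mature miRNA differed from miR-322-5p at 6 positions (miR-15b-5p), from miR-351-5p at 8 and from miR-450a-5p at 5, so that reads of these members are unlike those of their seed relatives. miR-450a-5p is an exception of another kind: 2 hairpins, Mir450-1 and Mir450-2, give the same mature sequence, and its reads cannot be assigned to either.

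On GRCm38 all 7 hairpins lie on the minus strand of chromosome X within 6353 bp, in the order of transcription Mir322 (chrX:53054255-53054349), Mir503 (chrX:53053984-53054054), Mir351 (chrX:53053255-53053353), Mir542 (chrX:53049403-53049487), Mir450-2 (chrX:53048299-53048367), Mir450-1 (chrX:53048154-53048244) and Mir450b (chrX:53047997-53048078). They form a pair of groups. Mir322, Mir503 and Mir351 span 1095 bp and lie inside the noncoding gene C430049B03Rik (chrX:53053112-53057190) in the RefSeq gene table, although the GENCODE models overlap no other gene there. Mir542 to Mir450b span 1491 bp, begin 3767 bp after Mir351 and lie in no other annotated gene. The protein-coding neighbours are Hprt and Plac1.

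The control libraries held 4992339 to 6548379 counts in total and those of LLC mice 6216566 to 7833161, and 3 counts, taken as the smallest level a library can show, corresponded to 0.383 to 0.601 CPM (counts scaled to a library of 1e+06) before normalization. All CPM below are after TMM normalization, which rescales each library by the bulk of its miRNAs. The TMM factor was 0.953 to 1.15 in the control group and 0.762 to 1.11 in the LLC group. The lowest factor belonged to L5, whose 5 most abundant miRNAs held 68.5% of its counts against 53.9 to 61.0% in the other mice. Of the skeletal muscle markers, miR-486a-5p (400176 to 559151 counts), miR-133a-3p (89338 to 186111) and miR-133b-3p (20160 to 41678) were abundant. The others were scarce. miR-1a-3p, a general muscle miRNA, had only 62 to 171 counts, miR-499-5p 18 to 49 and miR-208b-3p 15 to 42. miR-206-3p, a slow-fibre and satellite cell miRNA, had at most 3 counts in any library.

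miR-351-5p and miR-322-5p made up nearly all of the cluster. Together they held 92.3 to 93.8% of its counts in every mouse, and they ranked 61 and 69 by mean CPM among the 304 expressed miRNAs (more than 32 counts in at least 1 library). miR-450a-5p ranked 150, miR-322-3p 220, miR-542-5p 255, miR-450b-5p 263 and miR-503-3p 297. These are levels in reads of whole arms of 21 to 24 bases, and adapter ligation, which differs by sequence, is part of them. Of the 10 members, 7 counted as expressed, miR-503-3p only through the 33 counts of L6. The other 3 were near the limit: miR-503-5p had 1 to 8 counts per library, miR-351-3p 0 to 6 and miR-542-3p 5 to 28. The other arms of the same hairpins were also near the limit, with 0 to 4 counts for miR-450a-1-3p, 0 to 2 for miR-450a-2-3p and 3 to 6 for miR-450b-3p. The map by distance places the 2 abundant arms at the upstream end of the cluster.

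**Figure D1:**
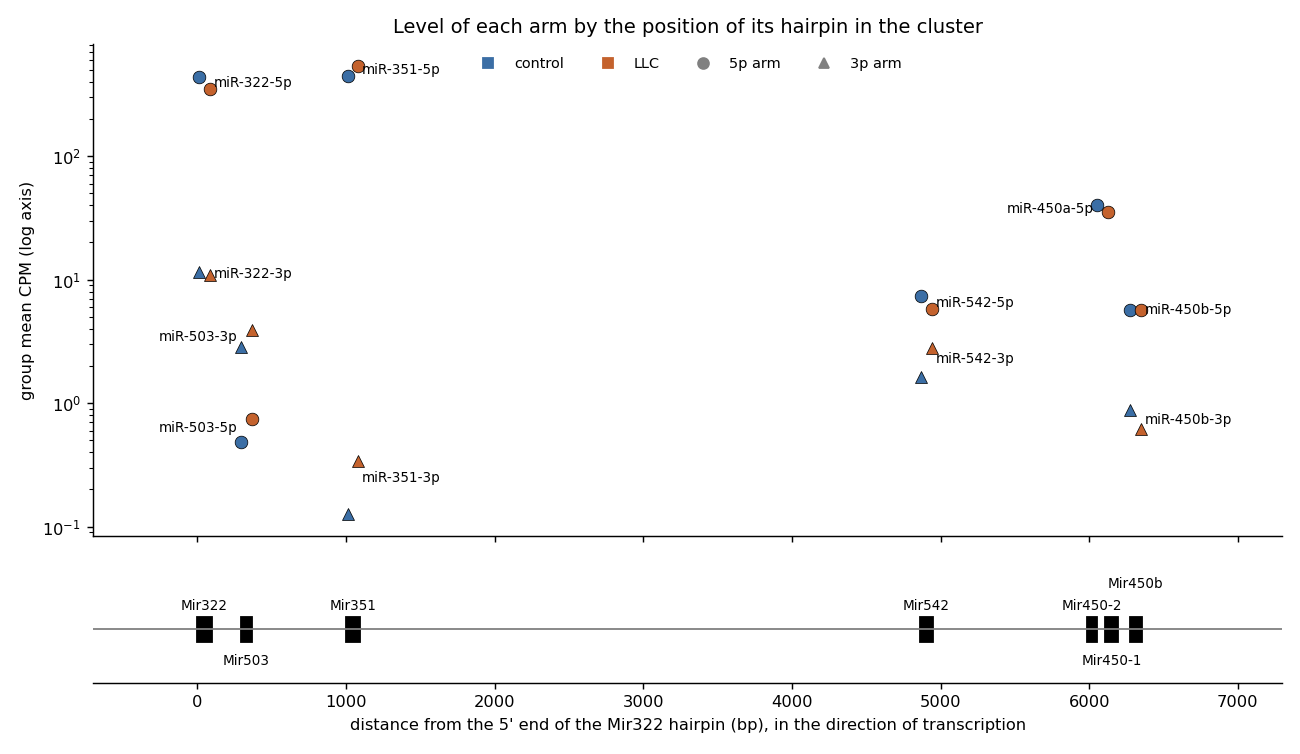
Mean CPM of each arm in control and LLC mice (log axis) above the position of its hairpin, in bp from the 5′ end of the Mir322 hairpin. miR-322-5p and miR-351-5p are the most abundant arms in both groups, whereas miR-503-3p, from the hairpin between them, stands at 2.84 and 3.90 CPM.

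Whether the tumor-bearing state came with another level of the cluster was examined first on the sum of its 10 arms, which did not separate the groups. The summed CPM was 896, 962, 943 and 1010 in C1 to C4 and 994, 970, 978, 873 and 936 in L1, L2, L3, L5 and L6. The means were 953 ± 47.0 (SD, n = 4) and 950 ± 47.7 (SD, n = 5), and the LLC range overlapped the control range almost completely. Being a sum over the members, it was not tested. Without TMM, by library totals alone, the log2 ratio of the group means was -0.14 in place of -0.00, while the median change over the 304 expressed miRNAs, on the log2 scale, went from -0.02 to -0.17.

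By single arm, no member passed the threshold in edgeR's quasi-likelihood test over the 304 miRNAs. A call needed a p of 0.05 or less after Benjamini-Hochberg adjustment together with a change of 1.5-fold or more. That threshold was passed by 0 of all 304 (0.0%) in edgeR, by 0 in limma voom and by 7 in DESeq2, none of them a member. At an unadjusted p of at most 0.05, edgeR had 50 of 304 miRNAs: 34 with lower values in the LLC group (11.2%) and 16 with higher values (5.26%). Of the 7 expressed members, 1 was among the lower (miR-322-5p) and 0 among the higher, a share near the background. Of all expressed miRNAs, 18 (5.92%) had groups that did not overlap, and no member was one of them. The median log2-fold change was -0.09 over the expressed members and -0.02 over all 304.

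miR-322-5p was the arm with the lowest unadjusted p. Its CPM was 472, 495, 374 and 397 in C1 to C4 and 314, 382, 426, 263 and 371 in L1, L2, L3, L5 and L6. L1, L5 and L6 lay below every control mouse, while L2 and L3 lay within the control range. The means were 434 ± 58.2 (SD, n = 4) and 351.01 ± 63.5 (SD, n = 5), with a log2-fold change of -0.31 (SE 0.143, 95% interval -0.61 to -0.0034), an unadjusted p of 0.0478 and an adjusted p of 0.296 in edgeR. The two-sided exact permutation test over the mice gave p = 0.103, where 0.00794 is the smallest p this design allows. In the same permutation test the p of miR-542-5p (0.0952) and of miR-542-3p (0.0873) were lower. The log2-fold change was -0.22 when L5 was left out, and also when C2 was.

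miR-351-5p, from a hairpin 996 bp downstream, had values on the other side. Its CPM was 354, 393, 500 and 548 in C1 to C4 and 614, 515, 477, 555 and 507 in the 5 LLC mice in the same order. C1 and C2 lay below every LLC mouse, while C3 and C4 lay among them. The means were 449 ± 90.3 (SD, n = 4) and 533 ± 53.2 (SD, n = 5), and the log2-fold change was 0.25 (SE 0.136, 95% interval -0.04 to 0.54, adjusted p = 0.326 in edgeR). All 5 LLC mice were above the control median, yet the exact permutation test gave p = 0.135. With library totals alone the log2-fold change was 0.11, and it was 0.15 without C1 and 0.38 without C4 (adjusted p = 0.301 in edgeR).

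**Figure D2:**
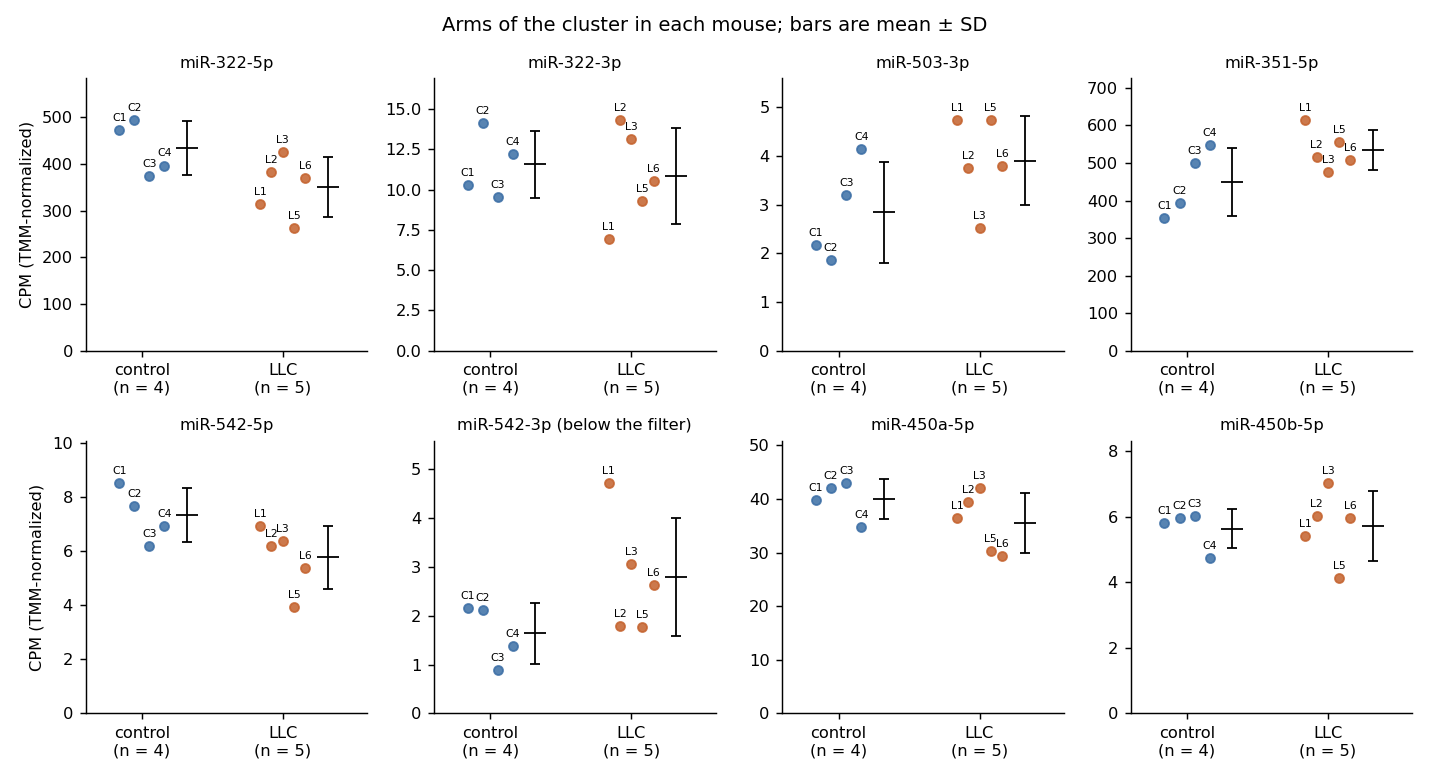
CPM of 8 arms in each mouse (points, labelled by mouse) with the mean ± SD of the control (n = 4) and LLC (n = 5) groups. The groups overlap in each panel, and C1 and C2 are the highest for miR-322-5p and the lowest for miR-351-5p.

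The partner arms of these hairpins were scarce. miR-322-3p, the passenger arm of Mir322, stood at 10.3, 14.2, 9.56 and 12.2 CPM in the control mice and at 6.92, 14.3, 13.2, 9.28 and 10.5 CPM in the LLC mice. Its groups overlapped and the log2-fold change of -0.09 (SE 0.219, adjusted p = 0.820 in edgeR) was well inside its error. miR-503-3p stood at 2.17, 1.85, 3.19 and 4.15 CPM in the control mice and at 4.73, 3.75, 2.52, 4.74 and 3.78 CPM in the LLC mice. L1 and L5 were the only LLC mice above every control mouse, and the log2-fold change was 0.48 (SE 0.297, 95% interval -0.15 to 1.11, adjusted p = 0.370 in edgeR), with 14 to 33 counts behind each value. Since it passed the expression criterion only through 1 LLC mouse, the fit of miRNAs with at least 10 counts in every library is given too, in which the log2-fold change was 0.50 (adjusted p = 0.345). miR-503-5p, the arm with the miR-15/16 type of seed, had no more than 3 counts in C1, C2, C3, C4 and L1 and 4 to 8 counts in the other 4 mice, too few for a difference to be detectable at this depth (exact permutation test, p = 0.333). miR-351-3p was at 0 in C2, L1 and L2.

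In the downstream group, miR-450a-5p was the most abundant arm. Its CPM was 39.8, 42.1, 43.0 and 34.8 in C1 to C4 and 36.5, 39.4, 42.0, 30.2 and 29.3 in the LLC mice. L5 and L6 lay below every control mouse, and the log2-fold change was -0.17 (SE 0.146, adjusted p = 0.521 in edgeR). It was -0.09 without L6 and -0.31 with library totals alone. miR-450b-5p stood at 5.82, 5.96, 6.02 and 4.74 CPM in the control mice and at 5.40, 6.03, 7.04, 4.15 and 5.96 CPM in the LLC mice. Its means of 5.64 and 5.72 CPM nearly coincided (log2-fold change 0.03, SE 0.210, adjusted p = 0.953 in edgeR), and the sign of this small difference turned with library totals alone.

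The 2 arms of Mir542 had values on opposite sides. miR-542-5p, which has been studied in muscle wasting of intensive care patients, stood at 8.53, 7.68, 6.20 and 6.91 CPM in the control mice and at 6.92, 6.19, 6.38, 3.95 and 5.39 CPM in the LLC mice (log2-fold change -0.35, SE 0.209, adjusted p = 0.357 in edgeR). miR-542-3p stood at 2.17, 2.12, 0.885 and 1.38 CPM in the control mice and at 4.73, 1.79, 3.06, 1.78 and 2.64 CPM in the LLC mice. L1, L3 and L6 were above every control mouse for miR-542-3p. Its difference in mean log2 CPM was 0.66 (exact permutation test, p = 0.0873), and in the edgeR fit of 932 miRNAs without a filter its log2-fold change was 0.78 (SE 0.342) with an adjusted p of 0.337.

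The share of the 3p arm within a hairpin needs no normalization between libraries, since both arms come from 1 library. For Mir542 it was 20.3, 21.6, 12.5 and 16.7% in C1 to C4 and 40.6, 22.4, 32.4, 31.0 and 32.9% in L1, L2, L3, L5 and L6. Every LLC mouse was above every control mouse, although C2 and L2 were close together. The means were 17.8 ± 4.08% (SD, n = 4) and 31.9 ± 6.45% (SD, n = 5), a difference of 14.1 percentage points with p = 0.0159 in the two-sided exact permutation test. Adjusted over the 4 hairpins with at least 20 counts in every mouse the p was 0.0635, which missed the threshold. Arm shares of hairpins outside the cluster were not examined, so how often groups separate in this measure is not known. Each share rested on 29 to 79 counts: the 16 of 74 counts of C2 had a 95% Wilson interval of 13.8 to 32.3%, and the 11 of 49 counts of L2 one of 13.0 to 35.9%. These intervals cover counting error only, since the reads carry no molecular identifiers and may be copies of 1 molecule. In both groups the 5p arm had the larger share.

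**Figure D3:**
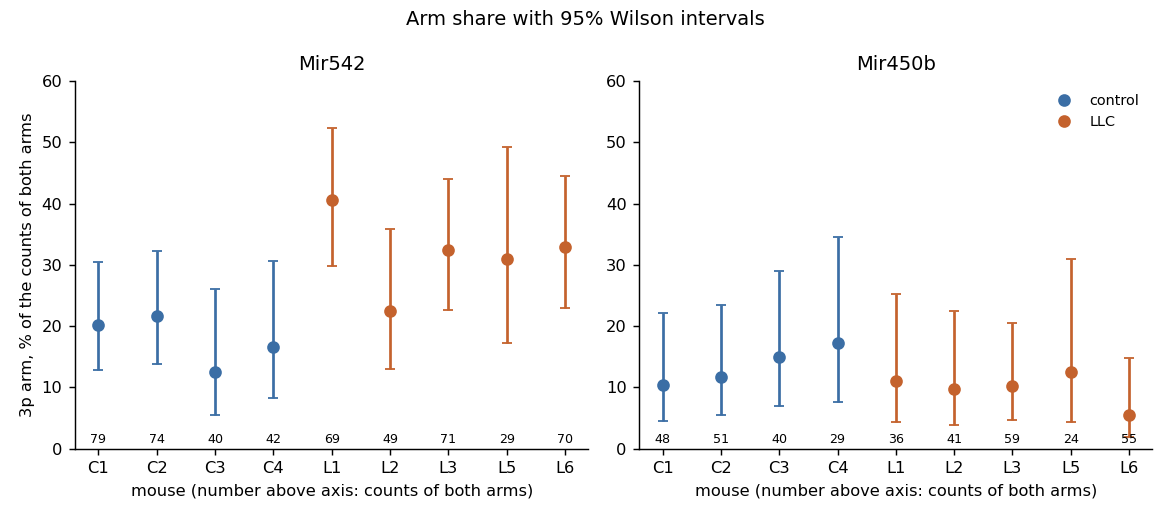
Share of the 3p arm among the counts of both arms (%) in each mouse, with 95% Wilson intervals, for Mir542 and Mir450b, and the counts of both arms above the axis. For Mir542 the control mice sit at 12.5 to 21.6% and the LLC mice at 22.4 to 40.6%, with intervals that overlap between single mice.

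The other hairpins had no such separation. The 3p share of Mir322 was 2.60 ± 0.374% (SD, n = 4) in the control and 2.99 ± 0.572% (SD, n = 5) in the LLC group (exact permutation test, p = 0.294). For Mir351 it was at most 0.213% in any mouse (p = 0.619, exact permutation test), so that this hairpin was read as its 5p arm almost alone. For Mir450b it was 13.6 ± 3.09% (SD, n = 4) and 9.80 ± 2.65% (SD, n = 5), with p = 0.103 in the exact permutation test and 0.206 after adjustment over the hairpins. Mir503 had too few counts for a test (17 in the lowest mouse), and its 3p arm held 70.4 to 96.6% of them. Mir503 was thus the only hairpin of these 5 in which the 3p arm was the more abundant.

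Coordination within the cluster was examined as the correlation of log2 CPM over the 9 mice, for the 21 pairs of expressed members, with exact permutation p-values adjusted over the 21 pairs. The median r was 0.20 over the members' pairs (0.11 on deviations from the group means) and -0.00 over all 46056 pairs of expressed miRNAs. Of the members' pairs, 2 of 21 (9.52%) had an r of at least 0.7, against 7.38% of all pairs. Negative r were found in 10 of 21 pairs, beside 23049 of all 46056, a share near the background. An r of -0.7 or less was found in 2 of 21 pairs, beside 2992 of all 46056. The members' median depended on the scaling and on single mice, being 0.62 with library totals alone, -0.23 without L5, -0.01 without C2 and 0.43 without L1.

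Among the upstream arms, miR-503-3p and miR-351-5p rose and fell together. Their r was 0.92 (exact permutation p = 0.000229, adjusted p = 0.00480) and Spearman's rho 0.95 (exact permutation p = 0.000353, adjusted p = 0.00741). The r was 0.88 without C1 and C2, the mice farthest from the median of miR-503-3p, and 0.89 on deviations from the group means. It was 0.67 with library totals alone, for which no p was computed. miR-503-3p had only 14 to 33 counts per library and entered these pairs only through the 33 counts of L6.

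miR-322-5p, from the first hairpin of the same 1095 bp, had negative correlations with both. With miR-503-3p its r was -0.88 (exact permutation p = 0.00110, adjusted p = 0.0115) and its rho -0.88 (exact permutation p = 0.00308, adjusted p = 0.0323). The r was again -0.88 without C2 and L5 and -0.83 within groups. With miR-351-5p its r was -0.81 (exact permutation p = 0.0104, adjusted p = 0.0547) and its rho -0.82 (exact permutation p = 0.0108, adjusted p = 0.0754), with -0.89 without C2 and L5 and -0.71 within groups. This relation of levels depended on the normalization: with library totals alone it was -0.02, and that of miR-322-5p with miR-503-3p was -0.61. The log2 CPM of miR-322-5p itself had an r of 0.93 with the log2 TMM factor over the 9 mice, that of miR-503-3p one of -0.77, that of miR-351-5p one of -0.72 and that of miR-542-5p one of 0.70.

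**Figure D4:**
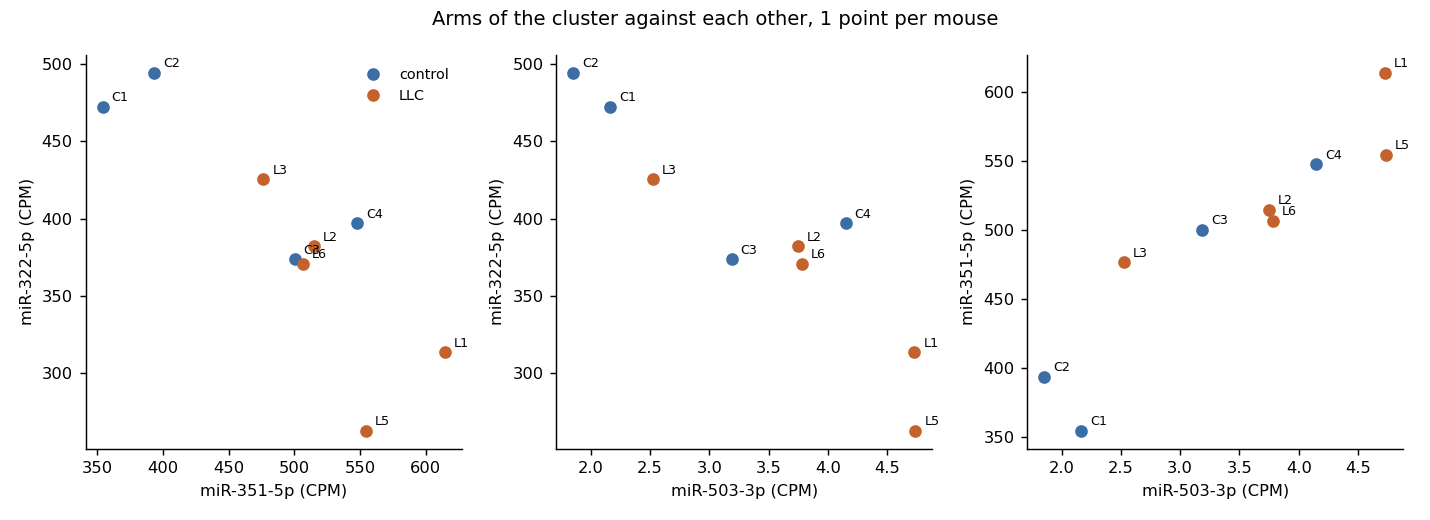
CPM of miR-322-5p, miR-351-5p and miR-503-3p plotted against each other, 1 point per mouse. C1 and C2 lie at one end of each panel and L1 and L5 at the other, while C3, C4, L2, L3 and L6 lie between them.

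The ratio of miR-322-5p to miR-351-5p counts is free of the normalization, but it was chosen after these values were seen and is given without a test. It was 1.33, 1.26, 0.747 and 0.725 in C1 to C4 and 0.511, 0.742, 0.893, 0.474 and 0.732 in L1, L2, L3, L5 and L6. miR-322-5p was the more abundant of the pair only in C1 and C2. The control mice alone thus covered most of the range, and C3 and C4 lay among the LLC mice.

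Between miR-322-5p and the downstream arms no relation passed the adjusted threshold. Its r was 0.81 with miR-542-5p (exact permutation p = 0.00872, adjusted p = 0.0547), 0.64 with miR-450a-5p and 0.66 with miR-450b-5p (adjusted p = 0.127 for both, exact permutation). Spearman's rho was 0.70, 0.60 and 0.33 for these pairs (adjusted p = 0.182, 0.230 and 0.450, exact permutation). All 3 relations rested on C2 and L5, the mice farthest from the median, without which r was 0.47, 0.31 and 0.28. Without L5 alone the r with miR-542-5p was 0.58. The 3 downstream arms had r of 0.49 to 0.67 with each other, none past the adjusted threshold, and the lowest, between miR-542-5p and miR-450b-5p, turned to -0.30 without C1 and L5 (rho -0.10). miR-322-5p and miR-322-3p, from 1 hairpin, had an r of 0.63 (adjusted p = 0.127, exact permutation).

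**Figure D5:**
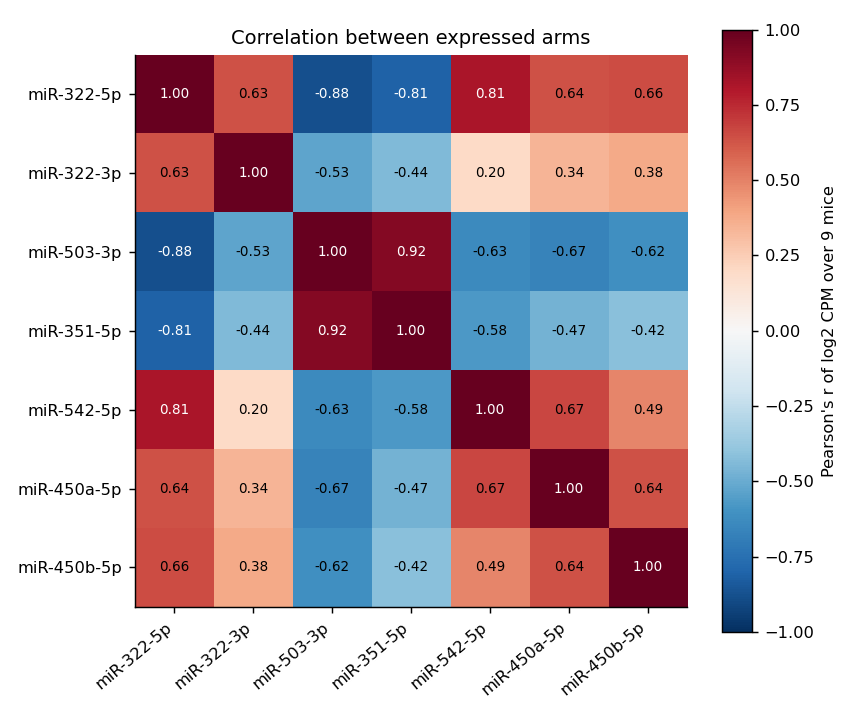
Pearson's r of log2 CPM over the 9 mice for each pair of the 7 expressed arms, from -1 (blue) to 1 (red). miR-503-3p and miR-351-5p correlate with each other at 0.92 and negatively with all of the others, between -0.88 and -0.42.

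Levels of erythroid miRNAs went with those of miR-322-5p and against those of miR-351-5p, whereas the r of the other lists were weak or changed with their most abundant miRNA. All 3 erythroid miRNAs (miR-451a, miR-144-3p and miR-144-5p) were lower in the LLC group at an unadjusted p of at most 0.05, and none was at 0 in any mouse. Their summed CPM was 215 to 325 in the control and 92.4 to 220 in the LLC mice, and its r over the 9 mice was 0.89 with miR-322-5p and -0.84 with miR-351-5p. Without miR-451a, which held 60.1 to 71.0% of this sum, the r were 0.91 and -0.79. The 5 leukocyte miRNAs, 1 of them higher and 1 lower at that p, summed to 691 to 800 and 583 to 742 CPM, with r of 0.83 and -0.75. These rested on miR-150-5p (50.6 to 66.0% of the sum), without which they were 0.40 and -0.32. The 7 skeletal muscle miRNAs, of which 6 were expressed and 0 passed that p, summed to 77619 to 102500 and 85388 to 125070 CPM, with r of -0.88 and 0.69. Their sum was mostly miR-486a-5p (63.7 to 81.5%), and the r of the other 6 had the opposite signs, 0.49 and -0.83. The log2-fold change of miR-486a-5p was 0.20, whereas the median over the 6 expressed was -0.20. The 5 miRNAs of fibroblasts and smooth muscle, 1 of them lower at that p, had r of -0.67 and 0.59, but miR-143-3p held 92.4 to 96.3% of their sum and the r of the other 4 were -0.44 and 0.12. The 2 endothelial miRNAs, 1 of them lower at that p, had r of 0.09 and 0.19 as a sum that was mostly miR-126a-5p, whereas miR-126a-3p alone had r of 0.92 and -0.66. All these r are given without a p, since the values share the same libraries and factors. The part of these cells in the levels of the cluster was not tested. Of the 3 satellite cell miRNAs only miR-31-5p was expressed. Their summed CPM had r of 0.08 with miR-322-5p and 0.20 with miR-351-5p, also given without a p.

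The members differ in base composition, from 31.8% G and C in miR-450a-5p to 66.7% in miR-351-3p, with 40.9% in miR-322-5p and 62.5% in miR-351-5p. Across the 270 expressed miRNAs with a sequence in RefSeq (88.8% of 304), the r between the G and C content and the log2-fold change was 0.07. That content had an r of -0.11 with each other miRNA's correlation to miR-322-5p, of 0.12 with its correlation to miR-351-5p and of 0.16 with that to miR-503-3p. These values are across miRNAs, which are not independent replicates.

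The seed relatives set the scale of the cluster in this muscle. miR-15a-5p, miR-15b-5p, miR-16-5p, miR-195a-5p and miR-497a-5p are known to restrain cyclins and other cell cycle genes, and summed to 6867 to 7267 CPM in the control and 5263 to 7525 CPM in the LLC mice. miR-322-5p and miR-503-5p held 4.77 to 6.44% of the counts of these 7 miRNAs together. Of the relatives, miR-497a-5p was the only 1 whose groups did not overlap, at 289, 287, 292 and 310 CPM in C1 to C4 and 207, 223, 240, 216 and 211 CPM in the LLC mice (log2-fold change -0.43, SE 0.101, adjusted p = 0.0812 in edgeR, exact permutation p = 0.00794). It missed the adjusted threshold, and its change was also below the 1.5-fold that a call needed. The log2-fold change was -0.25 for miR-15a-5p, -0.10 for miR-15b-5p, -0.14 for miR-16-5p and 0.04 for miR-195a-5p. None of these 4 reached an unadjusted p of 0.05 in edgeR.

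miR-351-5p held 8.79 to 10.6% of the counts of the 3 expressed miRNAs with its seed in the control mice and 9.72 to 13.5% in the LLC mice, with means of 9.70 ± 0.983% (SD, n = 4) and 11.9 ± 1.43% (SD, n = 5). The groups overlapped through L2, and this share was not tested. miR-125a-5p and miR-125b-5p, the mammalian relatives of lin-4, made up the rest, at log2-fold changes of -0.02 and -0.15 (adjusted p = 0.948 and 0.489 in edgeR).

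The 5 expressed miRNAs outside the cluster with a pattern most like the mean of its 7 expressed arms were miR-24-2-5p (r = 0.85 over the 9 mice), miR-16-5p (0.83), miR-431-5p (0.82), miR-335-5p (0.81) and miR-101a-5p (0.80). These values rested in part on L5, without which they were 0.75, 0.56, 0.35, 0.55 and 0.47. As some arms correlated negatively, the nearest miRNAs to both abundant arms were also looked up, after these values were seen. miR-136-3p (r = 0.97) and miR-29c-3p (r = 0.96) were the nearest to miR-322-5p, and its seed relative miR-15a-5p had an r of 0.94 with it. For miR-351-5p they were miR-183-5p (r = 0.90) and miR-24-1-5p (r = 0.88).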

How the data were processed

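The authors prepared small RNA libraries with a TruSeq kit, sequenced them as single-end reads in one lane, and mapped them with Bowtie to miRBase mature sequences without seed mismatch, keeping every best alignment. The deposited counts are whole numbers per mature miRNA, unnormalized, and 932 of 1915 had a count. The members and lists were chosen with earlier results of these data known. In edgeR 4.0.16 (R 4.3.3), 304 miRNAs (a count above 32 in 1 or more of the 9 libraries) were fitted with TMM factors and the quasi-likelihood F test without a block. Library sizes covered all miRNAs. Log2 CPM used a prior count of 2. Single arms and arm shares were tested with two-sided exact permutation over the 126 assignments of 9 mice, and correlations over all 362880 pairings. Alternatives were RLE factors, library totals alone, no filter, 10 counts in every library, DESeq2 1.42.0, limma 3.58.1 with voom, a replicate block and each mouse left out. The edgeR, DESeq2 and limma fits were run on simulated counts with known fold changes, whereas the permutation tests and correlations were not. Named miRNAs were the members, the other arms of their hairpins, their expressed seed relatives and the 5 most alike, besides those stated as chosen later. Figures used matplotlib 3.10.9.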

Additional observations from a re-analysis of the deposited data

Results flagged for a closer look

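Over 30 groups of values (9 arms, the summed CPM, the ratio of miR-322-5p to miR-351-5p and 4 arm shares, in each group of mice), 2 held a mouse far from the others, where chance alone marks about 1 in 20. miR-450b-5p stood at 4.74 CPM in C4, against 5.82 to 6.02 CPM in the other control mice. The 3p share of Mir351 was 0.0% in C2, where a count of 0 allows a share of up to 0.101%, against 0.0354 to 0.0382% in the other control mice, which rests on 1 count of miR-351-3p in each of those.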

How the results depend on the processing

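Of 111 log2-fold changes of expressed members under the alternatives, 106 kept their direction, and no adjusted p was below 0.157. The exceptions were miR-450b-5p (-0.10 with library totals alone, and -0.042 to 0.11 with 1 mouse left out, negative without C4 or L3) and miR-322-3p (-0.21 to 0.040 with 1 mouse left out, positive without C2 or L1). For all miRNAs, 22 were called with no filter and 7 with DESeq2, and 0 to 8 with 1 mouse left out (1 without L1, 8 without L3). Members at an unadjusted p of at most 0.05 numbered 0 with RLE factors, library totals alone, 10 counts in every library, DESeq2 or the replicate block, 2 with no filter, and 0 to 3 with 1 mouse left out (3 without C4). The 2 with no filter were miR-542-3p (unadjusted p = 0.0231 in edgeR) and miR-351-5p (0.0451), both with higher values in the LLC group. In that fit miR-322-5p was at 0.0653. Control and LLC mice of the same number are different animals. Their deviations had correlations of -0.23, -0.09 and -0.25, inside the range of -0.33 to 0.44 for mice of unlike number. Whether a number marks a shared preparation cannot be told from so few values. With the block 0 miRNAs were called. The difference in Mir542 arm share was 11.9 to 16.5 percentage points with 1 mouse left out (p of 0.0179 to 0.0357, exact permutation), and that of Mir351 -0.00088 to 0.0524, negative without L5. The median correlation between members was 0.62 with library totals alone, -0.10 as Spearman's rho and -0.23 (without L5) to 0.43 (without L1) with 1 mouse left out, and -0.01 without C2. Library totals alone moved the median of all expressed miRNAs to -0.17 and the log2 ratio of the summed CPM to -0.14. The cause of these changes was not tested.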
